A study of Homo sapiens with 15 samples.

Results

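Matrix metalloproteinases (MMPs) are zinc enzymes that cut collagens and other proteins outside the cell, and tissue inhibitors of metalloproteinases (TIMPs) bind them and block their active site. Most MMPs are secreted as inactive proenzymes, and a few, such as MMP14, sit in the cell membrane. In squamous carcinomas of the mouth these enzymes are known for their part in breaking down basement membrane and stroma. The 10 genes described here are MMP1, MMP13, MMP3, MMP10, MMP7, MMP9, MMP14, TIMP1, TIMP2 and TIMP3. They were found by the RefSeq accession of their probes, each with 1 probe, among the 19483 gene symbols that the array's probes could be matched to.

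The study asked how cytoglobin, a haem protein related to myoglobin, alters transcription in PE/CA-PJ41, a cell line from a human oral squamous cell carcinoma. By the methods, the cells labelled CYGB+ were a single clone of this line carrying human cytoglobin cDNA in the pCMV6-Neo plasmid, picked with cloning rings under G418, so an effect of cytoglobin and a property of the clone cannot be told apart. The NCE cells, which do not express cytoglobin according to the study, carried the empty vector by their labels, whereas the methods also speak of untransfected control cells. All cells were kept for 24 h in supplemented medium before RNA was taken. Each group had 3 biological replicates, hybridised on 9 arrays for NCE and 6 for CYGB+. Values below are log2 green (Cy3) signals after quantile normalisation, averaged over the arrays of each biological replicate, and between 48.9% and 57.3% of probes were well above background per array.

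The groups were checked before the comparison was made. All 9 squamous epithelial markers examined, KRT5, KRT14, KRT6A, KRT17, TP63, DSG3, CDH1, EPCAM and PERP, were well above background on every array of both groups. Of 9 fibroblast markers, FAP and COL1A2 were well above background on every array and COL1A1 on 7 NCE and all 6 CYGB+ arrays, DCN and PDGFRA were on at most 1 array by each probe, and COL3A1, LUM, PDGFRB and THY1 were on none. COL1A2 was lower in CYGB+ by a log2 difference of -2.52 (limma, adjusted p = 0.00303), -2.82 both with slide as a covariate and on slide 2 alone. FAP and COL1A1 had log2 differences of 0.63 and 0.24 and did not pass. With slide as a covariate these were 0.62 and -0.36, and on slide 2 alone 0.66 and -0.61. FAP was called, higher in CYGB+, under normexp background correction, with replicate as a random effect and without the arrays that stood apart. Of 6 leukocyte markers, LYZ had no probe, CD14 and CD68 were well above background on every array, and CD163 was on 2 NCE and 0 CYGB+ arrays, CD3E on 1 and 2 and PTPRC on at most 3 and 2 by each probe. CD163 was too dim for the filter and was called, lower in CYGB+, with no filter. Of 3 endothelial markers, CDH5 was well above background on 8 NCE and all 6 CYGB+ arrays (log2 difference 0.24, not called), PECAM1 on at most 1 array by each of its 3 probes and VWF on none. The part of COL1A2-expressing cells in the results below was not tested. The CYGB probe read 12.82, 13.14 and 12.97 in the NCE replicates and 12.39, 13.44 and 13.03 in the CYGB+ replicates. It was bright in both groups and did not separate them (log2 difference -0.03, adjusted p = 0.963; -0.16 with slide as a covariate and -0.08 on slide 2 alone). The probe was well above background on all 9 NCE arrays. The study describes these cells as not expressing cytoglobin, and the reason for this signal was not tested. Whether this probe lies within the transfected cDNA is not given in the sources used here, so it does not check the labels. Every direction below was read from the labels alone. By its supplement, the study measured cytoglobin mRNA and protein in its clones. It also ran qPCR on selected array genes, none of them a member, in control cells and clones. Those measurements were not compared with the arrays here.

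The arrays lay on 2 slides. Slide 1 held 8 NCE arrays, and slide 2 held 1 NCE array, from replicate 1, with all 6 CYGB+ arrays. Group and slide were therefore almost the same split, and values on slide 2 alone and with slide as a covariate over the 15 arrays are given beside the differences of the members (for MMP10 as p) and of the related genes that were called. On slide 2 alone, 24 of all probes were called, none of them for a member, a marker or a gene of the related lists. The slide 2 value sets that single NCE array against 3 CYGB+ replicates, with the NCE spread assumed to equal that of CYGB+. The difference with slide as a covariate also rests mainly on that array, as slide 1 held no CYGB+ array. A call gained or kept in that fit is therefore no separate check. Array repeat 1 of CYGB+ replicate 1 stood apart from its group, with a median correlation of 0.914, and array repeat 2 of NCE replicate 3 did so at 0.946.

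Of the 10 members, 8 passed the filter on dim probes, which asked for a signal well above background on at least 6 of 15 arrays, and 5 of the 8 differed between the groups at an adjusted p under 0.05. MMP1 and MMP10 were higher in CYGB+, and MMP7, MMP14 and TIMP3 were lower. Across all 22328 probes tested, 7.21% were called, 893 higher and 717 lower in CYGB+. The members and the related lists below were chosen with earlier results of these data known. Their shares called are therefore no test against that of all probes. MMP10 passed the filter through the CYGB+ arrays alone, so its count among the called is partly set by that filter. With no filter it was called as well (limma, adjusted p = 0.0124). With the filter on all 15 arrays, which left MMP10 out, 4 of 7 tested members were called, against 9.87% of all probes.

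**Figure D1:**
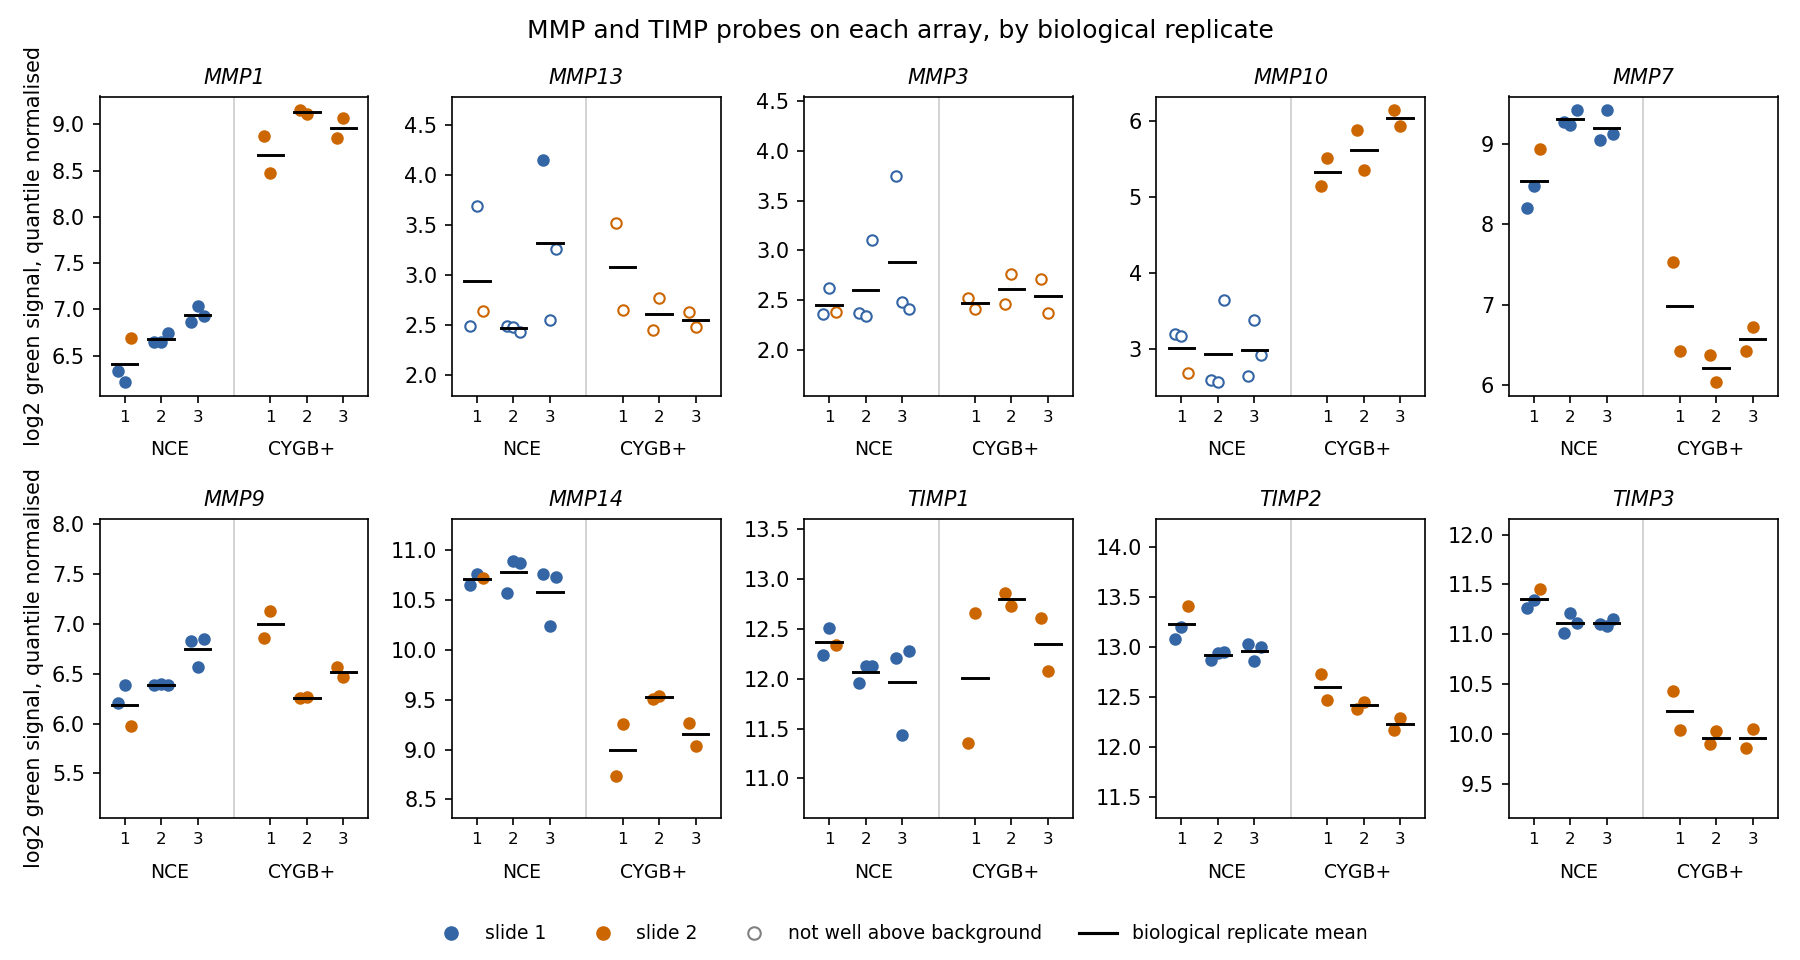
Log2 green signal of each MMP and TIMP probe (vertical axis, its own range in each panel) on every array, grouped by biological replicate, with the replicate mean as a bar, colour for the slide and open points where the probe was not well above background. MMP1, MMP10, MMP7, MMP14, TIMP2 and TIMP3 show no overlap between the arrays of the groups, while MMP3 on every array and MMP13 on all but 1 lie at background.

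MMP1 is the interstitial collagenase, which cleaves fibrillar collagens. It read 6.41, 6.68 and 6.94 in the NCE replicates and 8.67, 9.13 and 8.96 in the CYGB+ replicates. Every CYGB+ array was above every NCE array, the highest NCE array reading 7.03 and the lowest CYGB+ array 8.47. The difference was 4.73-fold (log2 2.24 ± 0.20 SE, adjusted p = 0.00369). More RNA per cell and more cells with the RNA cannot be told apart in such bulk samples. On slide 2 alone the log2 difference was 2.23 (adjusted p = 0.108), and with slide as a covariate it was 2.10 (adjusted p = 0.00135). Normexp background correction gave 1.42.

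MMP13, a further collagenase, was well above background on 1 NCE array, at 4.16, and on no CYGB+ array. Its other arrays could not be told from background in either group, and no fold is given.

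MMP3 and MMP10 are stromelysins, which cleave proteoglycans, fibronectin and other non-collagen matrix and activate other proenzymes. MMP3 was not well above background on any of the 15 arrays. MMP10 was not well above background on any NCE array, where the replicates read 3.01, 2.93 and 2.98. In CYGB+ it was well above background on all 6 arrays, and the replicates read 5.33, 5.62 and 6.04. The highest NCE array, at 3.65, lay below the lowest CYGB+ array, at 5.14. Only a bound on the fold can be given, since the NCE side is background, and it depends on the floor chosen. Each NCE array was set at the higher of its own reading and the dimmest signal of any probe well above background there. This floor is low, as MMP10 at 3.65 on an NCE array was not well above background. A higher floor would give a smaller fold. By this floor, MMP10 was at least 5.88-fold higher in CYGB+. Its adjusted p, from the fit to the readings as measured and not to these raised ones, was 0.00273, and it was 0.0720 on slide 2 alone and 0.00218 with slide as a covariate. The NCE spread in these fits is that of background readings, so these p do not measure the spread of MMP10 RNA in NCE. The bound holds for this scale and floor alone. Under normexp, whose offset compresses dim signals, the difference was smaller than the bound and still passed (limma, adjusted p = 0.0457). Over the alternatives, the lowest log2 difference of MMP10, without raised NCE readings, was 0.37.

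MMP7, or matrilysin, is a small epithelial MMP that lacks the haemopexin domain found in most of the family. It read 8.54, 9.31 and 9.19 in NCE and 6.98, 6.21 and 6.57 in CYGB+. All CYGB+ arrays lay below all NCE arrays, although CYGB+ replicate 1 held the highest array of its group, at 7.54. MMP7 was 5.37-fold lower in CYGB+ (log2 -2.43 ± 0.28 SE, adjusted p = 0.00704). The difference was -2.35 on slide 2 alone (adjusted p = 0.137) and -2.56 with slide as a covariate (adjusted p = 0.00986). The methods' t-test gave an adjusted p of 0.0535, and normexp gave a log2 difference of -1.51.

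MMP9 is a gelatinase, which cleaves type IV collagen and denatured collagen. It read 6.19, 6.39 and 6.75 in NCE and 6.996, 6.26 and 6.52 in CYGB+. The groups overlapped, and CYGB+ replicate 1 was the highest of the 6. The log2 difference of 0.15, with a 95% interval from -0.42 to 0.72, was within the replicate spread (adjusted p = 0.737), and it was 0.61 on slide 2 alone and 0.55 with slide as a covariate.

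MMP14 is a membrane-bound MMP that cleaves collagen at the cell surface and activates pro-MMP2 together with TIMP2. It read 10.71, 10.78 and 10.58 in NCE and 8.999, 9.52 and 9.16 in CYGB+. The lowest NCE array, at 10.24, lay above the highest CYGB+ array, at 9.54. MMP14 was 2.76-fold lower in CYGB+ (log2 -1.46 ± 0.19 SE, adjusted p = 0.00906). The difference was -1.50 on slide 2 alone (adjusted p = 0.263) and -1.49 with slide as a covariate (adjusted p = 0.0123). MMP2 itself was not well above background on any array.

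Of the inhibitors, TIMP1 is a secreted inhibitor that binds pro-MMP9. Its replicates read 12.36, 12.07 and 11.97 in NCE and 12.004, 12.79 and 12.34 in CYGB+. These ranges overlapped, and the arrays of CYGB+ replicate 1 were far apart, at 11.35 and 12.66. The log2 difference was 0.25, with a 95% interval from -0.31 to 0.80 (adjusted p = 0.547), and it was 0.04 on slide 2 alone and 0.13 with slide as a covariate.

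TIMP2, which takes part in the activation of pro-MMP2 at the cell surface, read 13.23, 12.92 and 12.97 in NCE and 12.60, 12.42 and 12.23 in CYGB+. Every CYGB+ array was below every NCE array, the closest being 12.74 and 12.86. The log2 difference was -0.62 ± 0.18 SE and missed the threshold after adjustment over all probes (adjusted p = 0.0775). With slide as a covariate it was -0.95 and passed (adjusted p = 0.0175), and on slide 2 alone it was -0.99. Both values rest mainly on the single NCE array of slide 2, so that pass is no separate check.

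TIMP3 is bound to the extracellular matrix and inhibits ADAM and ADAMTS enzymes as well as MMPs. It read 11.35, 11.11 and 11.11 in NCE and 10.23, 9.96 and 9.95 in CYGB+. The arrays of the groups were apart, with the lowest NCE array at 11.01 and the highest CYGB+ array at 10.43. TIMP3 was 2.21-fold lower in CYGB+ (log2 -1.14 ± 0.16 SE, adjusted p = 0.0130). The difference was -1.41 on slide 2 alone (adjusted p = 0.250) and -1.36 with slide as a covariate (adjusted p = 0.00286). Without NCE replicate 2 or NCE replicate 3 the adjusted p of TIMP3 was 0.0573 or 0.0534.

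**Figure D2:**
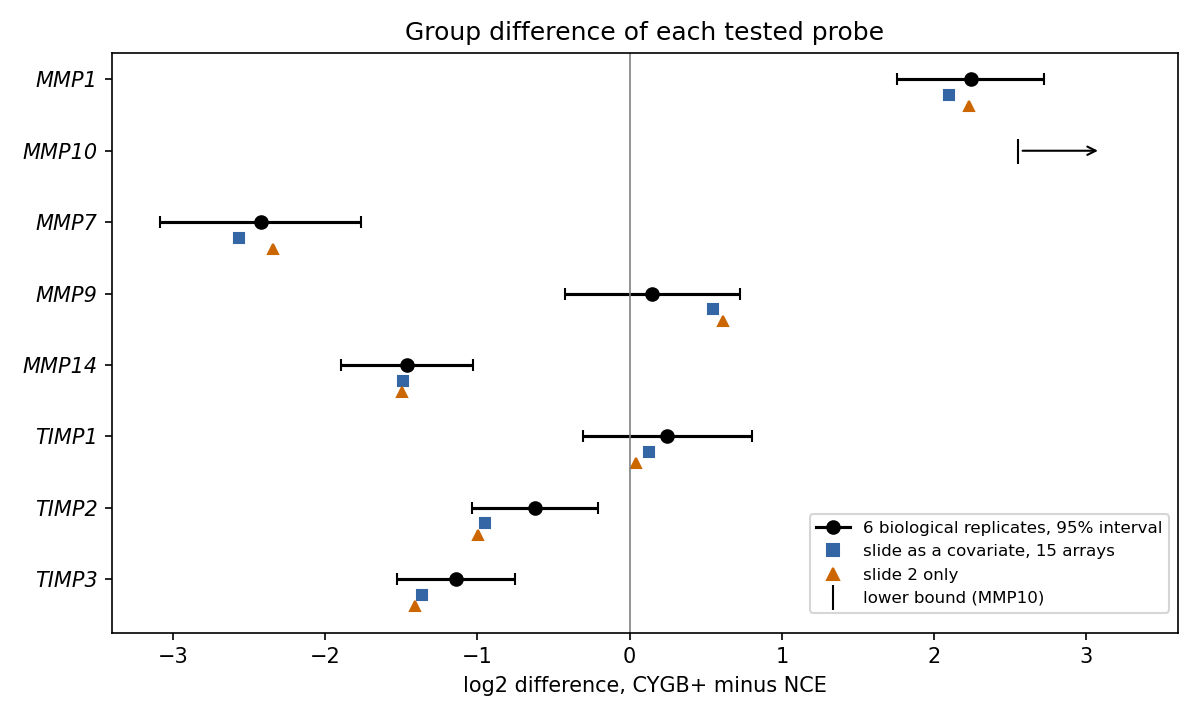
Log2 difference of CYGB+ minus NCE (horizontal axis) for the 8 tested members, with the estimate and 95% interval from the 6 biological replicates as circles, the fit with slide as a covariate as squares and slide 2 alone as triangles. MMP10 is drawn as its lower bound at the floor described in the text. MMP1 lies to the right of 0 and MMP7, MMP14, TIMP2 and TIMP3 to the left in all 3 estimates.

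MMP7, MMP10, MMP1, MMP3 and MMP13 lie together in a cluster of MMP genes on chromosome 11, in that order in the RefSeq table, with MMP20, MMP27 and MMP8 between MMP7 and MMP10 and with MMP12 between MMP3 and MMP13. Within the cluster MMP7 fell while MMP10 and MMP1, beside each other, rose, and the other MMP genes were too dim to be tested. Of the 17 other genes examined in and beside the cluster, 10 could be tested and 0 were called by limma, against 7.21% of all probes, and 0 had an unadjusted p under 0.05, against 5815 of 22328 probes. Their probes had a median log2 difference of 0.00, against 0.01 over all probes tested. The neighbours TMEM123, next to MMP7, and DCUN1D5, next to MMP13, had log2 differences of -0.28 and -0.35, which were 0.02 and -0.16 with slide as a covariate and 0.18 and -0.15 on slide 2 alone. Other neighbours moved more with slide, without a call: CASP5 went from -0.01 to 1.36 with slide as a covariate and 1.46 on slide 2 alone, and TRPC6 from 0.32 to -0.82 and -0.66.

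**Figure D3:**
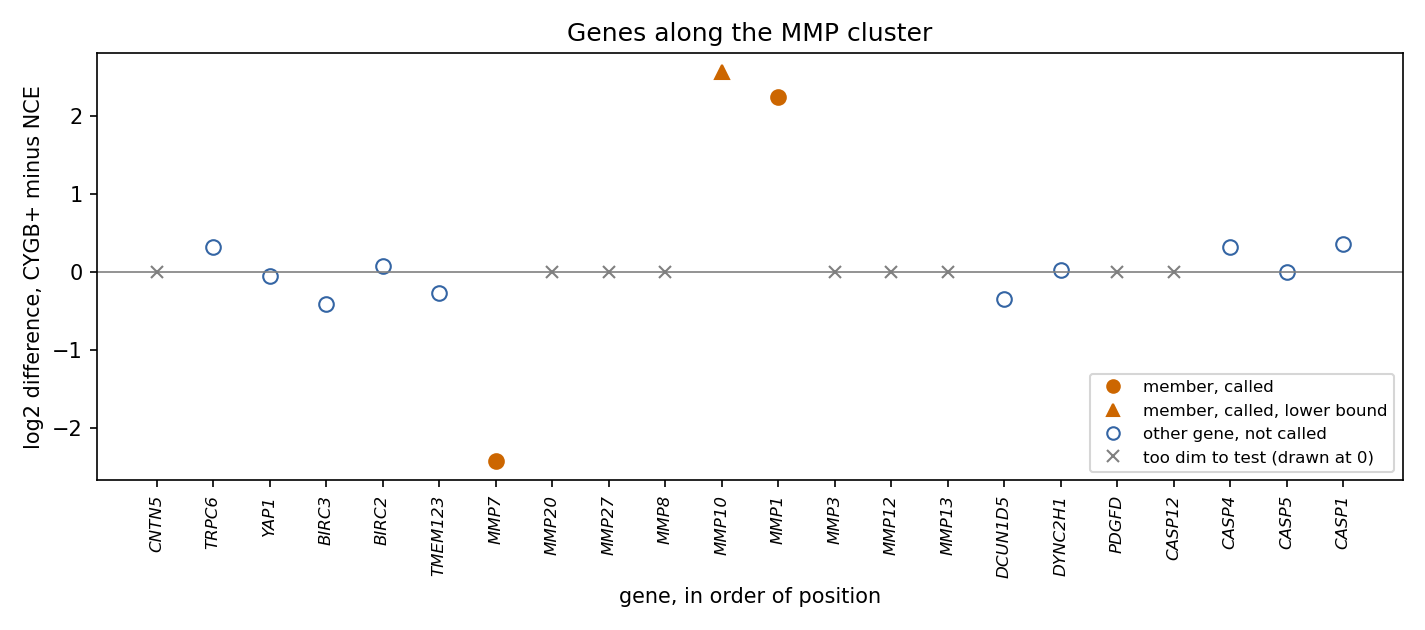
Log2 difference of CYGB+ minus NCE (vertical axis) for 22 genes in their order along the chromosome (horizontal axis, not to scale), with called members filled, MMP10 as a lower bound at the floor described in the text, other tested genes open and genes too dim to test as crosses at 0. The called genes MMP7, MMP10 and MMP1 stand off the line, and the tested neighbours lie between -0.41 and 0.36 in this fit, without slide.

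Promoter sequences were in the RefSeq table for 5 members, MMP7, MMP10, MMP14, TIMP1 and TIMP3. Those of the called members among them are printed because they changed in opposite directions. Each is the 120 bases before the transcription start (build GRCh38.p14), 5′ to 3′. Capitals mark TGANTCA, an AP-1 recognition motif with any base (N) allowed at its centre, a pattern that reads the same on both strands. The centre base is G in MMP7 and A in MMP10. MMP7 is at chr11:102530748-102530867 on the minus strand, MMP10 at chr11:102780629-102780748 on the minus strand, MMP14 at chr14:22836465-22836584 on the plus strand and TIMP3 at chr22:32801585-32801704 on the plus strand.
MMP7: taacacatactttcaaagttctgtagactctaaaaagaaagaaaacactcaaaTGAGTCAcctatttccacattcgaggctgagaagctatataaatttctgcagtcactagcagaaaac
MMP10: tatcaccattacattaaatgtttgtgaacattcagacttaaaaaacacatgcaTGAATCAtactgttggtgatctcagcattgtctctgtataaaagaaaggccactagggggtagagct
MMP14: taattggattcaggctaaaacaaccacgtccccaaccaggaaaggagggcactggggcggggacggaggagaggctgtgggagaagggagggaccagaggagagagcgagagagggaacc
TIMP3: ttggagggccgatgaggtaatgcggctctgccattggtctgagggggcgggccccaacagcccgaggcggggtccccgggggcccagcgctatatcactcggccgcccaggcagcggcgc

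The motif began 67 bases before the start in both MMP7, which was lower in CYGB+, and MMP10, which was higher. It was not in the windows of MMP14, TIMP1 or TIMP3, and 3.34% of all 35116 promoters of this length held it. A match of letters is a description and shows no binding.

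AP-1 and ETS proteins are textbook regulators of MMP promoters. The list examined held 15 of their genes, all tested, and the Runt-domain factors RUNX1, tested, and RUNX2, too dim. BATF3 and JUNB rose, ETS2 and RUNX1 fell, and 12 did not pass (7.21% of all probes were called). The median log2 difference over the list's probes was 0.40, against 0.01 over all probes, and it was 0.21 with slide as a covariate and 0.25 on slide 2 alone. BATF3, a partner of Jun proteins, read 6.08, 6.39 and 6.13 in NCE and 7.72, 7.81 and 7.91 in CYGB+, a 3.06-fold difference (log2 1.61, adjusted p = 0.00452), with log2 differences of 1.54 with slide as a covariate, 1.60 on slide 2 alone and 0.76 under normexp. JUNB was 1.83-fold higher (adjusted p = 0.0346) and ETS2 was 1.94-fold lower (adjusted p = 0.0467), log2 differences of 0.87 and -0.96. With slide as a covariate these were as large, at 1.02 and -1.31, but did not pass (adjusted p = 0.0913 and 0.206), and on slide 2 alone they were 1.004 and -1.41. With the replicate number as a block the adjusted p of ETS2 was 0.0649. RUNX1 was 2.07-fold lower by 1 of its 5 probes (log2 -1.05, adjusted p = 0.0151), with -1.06 for slide as a covariate and -1.02 on slide 2 alone, while its other probes did not pass, though with slide as a covariate a second one did (-0.89, adjusted p = 0.0151). When 1 replicate was left out in turn, BATF3 kept its call in all 6 fits, RUNX1 in 4, JUNB in 1 and ETS2 in 0.

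A list of cytokines and growth factors that induce MMPs, with the receptors EGFR, IL1R1 and TNFRSF1A and the interleukin-1 antagonist IL1RN, had 3 of 16 tested genes called, 2 higher and 1 lower, against 7.21% of all probes. With the replicate number as a block 6 were called, as EREG, TGFA by 1 of its 2 tested probes and EGFR by 1 of its 3, all lower in CYGB+, also passed (adjusted p = 0.0203, 0.0450 and 0.0494), against 8.84% of all probes. Their log2 differences of -1.16, -0.76 and -0.75 were -0.88, -0.19 and -0.85 with slide as a covariate and -0.72, -0.05 and -0.79 on slide 2 alone, with no call. IL6 read 9.56, 9.77 and 10.20 in NCE and 11.55, 11.19 and 11.76 in CYGB+, a 3.15-fold difference (log2 1.66, adjusted p = 0.0119), with 1.71 for slide as a covariate and 1.83 on slide 2 alone. LIF, a cytokine of the same family, was 2.36-fold higher (log2 1.24, adjusted p = 0.0445). With slide as a covariate its difference was 1.26 and did not pass (adjusted p = 0.101), and on slide 2 alone it was 1.31. TGFB2, a growth factor that controls matrix production, read 8.57, 8.999 and 8.56 in NCE and 6.95, 6.43 and 6.07 in CYGB+, a 4.67-fold lower level (log2 -2.22, adjusted p = 0.00704), with -2.06 for slide as a covariate, -2.02 on slide 2 alone and -1.27 under normexp. When 1 replicate was left out, TGFB2 kept its call in all 6 fits, IL6 in 5 and LIF in 1, and by the methods' t-test the 3 had adjusted p of 0.0516, 0.0624 and 0.136. The median log2 difference over the list's probes was 0.08, 0.06 with slide as a covariate and 0.22 on slide 2 alone, and IL1A, IL1B, TNF and CXCL8 did not pass.

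Each of the other 3 lists held 1 call, against 7.21% of all probes. Of 8 tested genes among the other MMPs and TIMP4, MMP23B was called, 1.91-fold higher in CYGB+ (log2 0.93, adjusted p = 0.0434); MMP23A is a near-identical copy and had no probe of its own. With slide as a covariate MMP23B was at 0.43 (adjusted p = 0.843), and it was 0.45 on slide 2 alone. TIMP4 had a log2 difference of -1.06 and did not pass (adjusted p = 0.0729), but with slide as a covariate it was -1.66 and passed in place of MMP23B (adjusted p = 0.0319), and on slide 2 alone it was -1.78. That pass rests mainly on the single NCE array of slide 2. With the replicate block MMP23B did not pass (adjusted p = 0.0527) and MMP24 did (0.0428), with a log2 difference of 1.11 that was 0.21 with slide as a covariate (adjusted p = 0.981) and turned to -0.10 on slide 2 alone. Among genes for MMP activation, binding and clearance, SPOCK1, an extracellular proteoglycan, was called alone of 17 tested, 2.19-fold higher (log2 1.13, adjusted p = 0.0106), with 1.16 for slide as a covariate and 1.20 on slide 2 alone, and PLAU, PLAUR, FURIN, RECK and BSG did not pass. Without NCE replicate 2 the adjusted p of SPOCK1 was 0.0559. Among ADAM and ADAMTS proteases, some of which TIMP3 inhibits, ADAM12 was called alone of 9 tested. It was 1.83-fold higher by 1 of its 3 probes (log2 0.87, limma, adjusted p = 0.0438). By this probe the difference was 0.57 with slide as a covariate (adjusted p = 0.674) and 0.64 on slide 2 alone. The other 2 probes of ADAM12 had log2 differences of -0.28 and 0.09, which were -0.50 and 0.07 with slide as a covariate, and did not pass. ADAM8 and ADAMTS1, with log2 differences of -1.22 for ADAM8 and -1.19 and -1.28 for the 2 probes of ADAMTS1, were further from 0 than ADAM12 and did not pass, but did with the replicate block (adjusted p = 0.0247, 0.0480 and 0.0491). With slide as a covariate they were -1.18, -1.09 and -0.83, and on slide 2 alone -1.05, -0.93 and -0.70, with no call. MMP23B and ADAM12 kept their calls in none of the 6 fits without 1 replicate. The median log2 differences of these lists were 0.21, 0.01 and -0.26, then 0.10, -0.04 and -0.42 with slide as a covariate and 0.02, 0.00 and -0.43 on slide 2 alone.

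**Figure D4:**
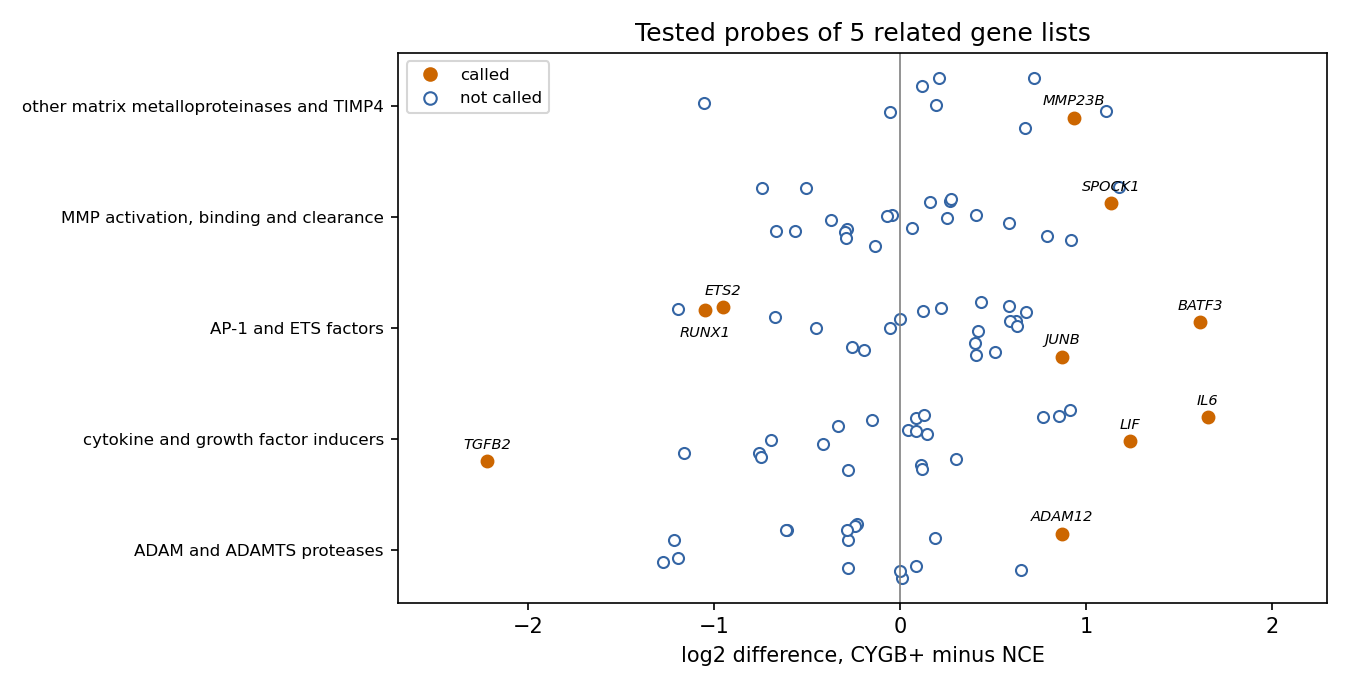
Log2 difference of CYGB+ minus NCE (horizontal axis) for every tested probe of 5 lists of related genes (rows), with called probes filled and named. The named probes run from TGFB2 at -2.22 to IL6 at 1.66, and the open probes lie between -1.28 and 1.18.

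For each called member other than MMP10, whose NCE values are background, the probes outside the families that followed it most closely over the 6 biological replicates were TUBGCP6, TIMM8B and XRCC3 for MMP1 (Pearson r = 0.999, 0.998 and 0.998), and ZNHIT6, RBL1 and SEMA6C for MMP7 (0.998, 0.998 and 0.997). For MMP14 they were TRPM4, STRN3 and TM9SF4 (0.999, 0.999 and 0.998), and for TIMP3 AP1G2, EMP1 and SNX21 (0.997, 0.997 and 0.995). The replicates fell into the 2 groups, so these values mainly show that the means of these probes also differed between the groups. TUBGCP6, TIMM8B, ZNHIT6 and TM9SF4 were themselves not called (limma, adjusted p = 0.0956, 0.0811, 0.110 and 0.0615).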

How the data were processed

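Total RNA of 15 samples was hybridised to Agilent SurePrint G3 Human 8x60K arrays. The scanner files hold, per the file headers, spot intensity values with dye-normalised, background-corrected processed signals. The labels give Cy3 for every sample, so the green channel was used; the study's methods name a different dye for control RNA, and the red channel was assigned to no group. The table of values deposited by the authors was on a natural log scale, as its group differences had a slope of 0.691 on scanner log2 differences (r = 0.977, 15031 probes); 99.3% of its rows had a CYGB+ median within 0.02 of 0.

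Control spots and outlier spots were left out, spots of a probe were averaged, and 42405 probes were quantile normalised (25422 matched a symbol). Array repeats were averaged, and 3 NCE and 3 CYGB+ replicates were compared by limma 3.58.1 in R 4.3.3 with Benjamini-Hochberg adjustment over 22328 probes; tables used Python 3.11.15. The fit was tested on simulated data. The number of arrays, averaged to 3 biological replicates per group, limits the precision. Replicates with the same number had correlated deviations (r = 0.188, 0.240 and 0.265), all over 0.1, so the numbers were taken to pair the samples, although 3 of the 6 pairs of different numbers were over 0.1 too (0.148, 0.149 and 0.179; the rest from -0.425 to -0.339). The main fit did not use this pairing, which entered only the alternative with the replicate number as a block. Members and lists were chosen with earlier results of these data known. Of other lists, all called genes were named where 6 or fewer were called.

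Alternatives were other scaling, normexp background (on median signals, as mean signals were not in the files used here), other filters, slide, replicate block, the methods' t-test, an intensity trend, the deposited table and leaving out replicates. The deposited table's column medians (natural log) were, for the NCE arrays in replicate order, -0.161, -0.0149 and 0.110, then -0.0403, 0.0388 and 0.0867, then -0.0483, 0.183 and -0.0220, and for CYGB+ 0.142 and 0.00129, then -0.00974 and -0.0484, then -0.0216 and 0.161.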

Additional observations from a re-analysis of the deposited data

Results flagged for a closer look

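The array values of the members and of CYGB were searched for an array far from the rest of its group, in 18 sets of 6 or 9 arrays, of which chance flags about 1 in 20. Sets with no array well above background were not searched (MMP3 in both groups, MMP10 in NCE and MMP13 in CYGB+). MMP14 on array repeat 2 of NCE replicate 3 read 10.24, below the next array at 10.57, with the gap taking a share of 0.507 of the group's range. TIMP3 on array repeat 1 of CYGB+ replicate 1 read 10.43, above the next array at 10.05, with a share of 0.666. These are the arrays that stood apart from their groups by correlation over all tested probes.

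The red channel of the arrays, which no label assigns to a sample, also carried signal for the members. MMP1, MMP7, MMP9, MMP14, TIMP1, TIMP2 and TIMP3 were well above background in red on all 15 arrays. MMP10 was well above background in red on 8 arrays, 3 of those whose green sample is NCE and 5 of those whose green sample is CYGB+.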

How the results depend on the processing

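MMP1, MMP10, MMP7, MMP14 and TIMP3 kept their direction under every alternative that measured them. All 5 lost their call on slide 2 alone, where limma called 0 members although 6 had an unadjusted p under 0.05 and MMP1, MMP7, MMP14 and TIMP3 had log2 differences of 2.23, -2.35, -1.50 and -1.41, while TIMP2, MMP9 and TIMP1 went from -0.62, 0.15 and 0.25 to -0.99, 0.61 and 0.04. That setting has a single NCE array. MMP7 also lost its call under the methods' t-test, and TIMP3 without NCE replicate 2 or 3. TIMP2 passed with slide as a covariate, a fit that rests mainly on the single NCE array of slide 2. It also passed with all 15 arrays and replicate as a random effect, with an intensity trend and without the arrays that stood apart. Under normexp, whose offset of 50 compresses dim signals, log2 differences shrank to 1.42 for MMP1 and -1.51 for MMP7, and that of MMP10, which has no exact size, was smaller too. MMP9, not called, changed sign without CYGB+ replicate 1, its left-out values running from -0.053 to 0.31. CYGB changed sign under 75th percentile scaling (0.12), in the deposited table (0.047) and over left-out replicates (-0.27 to 0.25), with no call in any. The deposited table held 4 members and called 3. The replicate block gave 1049 probes higher and 925 lower and called 5 members; among members, markers and related genes it ended the calls of MMP23B and ETS2, added MMP24, EREG, TGFA, EGFR, ADAM8 and ADAMTS1, and changed no other.

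Probes higher and lower in CYGB+ numbered 572 and 455 with no filter, 230 and 362 with slide as a covariate, 2478 and 2178 with 15 arrays and replicate as a random effect, 16 and 8 on slide 2 alone, and 366 and 268 by the methods' t-test. The alternatives chosen after seeing the data gave 1941 and 1608 without both arrays that stood apart, and 1877 and 1544 without array repeat 1 of CYGB+ replicate 1. Leaving out a replicate gave 164 to 724 higher and 131 to 618 lower: 320 and 258 without NCE replicate 1, 164 and 131 without NCE replicate 2, 239 and 137 without NCE replicate 3, 499 and 411 without CYGB+ replicate 2, and 326 and 330 without CYGB+ replicate 3. Those fits had fewer samples; the cause of the other changes was not tested.

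Genes called per list moved as follows, beside shares of all probes called of 7.21% in the main fit, 6.0% (1339 probes) under 75th percentile scaling, 9.61% under normexp and in the deposited table, 2.42% with no filter, 9.87% with the filter on all 15 arrays, 8.84% with the replicate block, 2.65% with slide as a covariate, 20.9% with the random effect, 0.107% on slide 2, 2.84% by the methods' t-test, 8.78% with the trend, 15.9% without the arrays that stood apart, 15.3% without array repeat 1 of CYGB+ replicate 1 and 1.32% to 6.01% over left-out replicates. Other MMPs and TIMP4 had 0 with no filter, on slide 2 and by the methods' t-test, 2 with the filter on all 15 arrays, 3 without the arrays that stood apart or without array repeat 1 of CYGB+ replicate 1, 4 with replicate as a random effect and 0 to 1 over left-out replicates. MMP activation, binding and clearance had 2 with no filter and in the deposited table, 7 with the random effect and 0 on slide 2. AP-1 and ETS factors had 2 with no filter, with slide as a covariate and by the methods' t-test, 8 with the random effect, 0 on slide 2, 6 under normexp and without the arrays that stood apart, and 1 to 3 over left-out replicates. Cytokine and growth factor inducers had 5 with the filter on all 15 arrays, 6 with the replicate block and without the arrays that stood apart, 9 with the random effect, 2 with slide as a covariate and no filter, 0 on slide 2 and by the methods' t-test, and 1 to 3 over left-out replicates. ADAM and ADAMTS proteases had 0 under 75th percentile scaling, with no filter, with slide as a covariate, on slide 2, by the methods' t-test and without each replicate, 2 under normexp, with the trend and in the deposited table, 3 with the replicate block and without the arrays that stood apart, and 5 with the random effect. Where a list had 0 calls, between 1 and 6 of its genes had an unadjusted p under 0.05 by limma or the methods' t-test.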

Other observations

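Unnormalised red signals are given as values, without groups, since the RNA in that channel is not named by the labels. On the arrays whose green sample is NCE, red MMP1 ran from 5.56 to 8.76 with a median of 6.48 (log2), and on those whose green sample is CYGB+ from 6.85 to 8.76 with a median of 7.61. Red MMP10 ran from 1.94 to 6.51 on the former and from 3.1 to 6.24 on the latter. Red MMP7 ran from 6.28 to 10.76 on the former and from 6.28 to 9.03 on the latter.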
